A study of Mus musculus with 12 samples.

Results

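The interferon-stimulated genes described here are 42 mouse genes, fixed by symbol, that were found in a table of 55401 genes counted in the heart. Their Ensembl identifiers were matched, without version numbers, to the symbols of the list, and all 42 were found. All 42 also passed the filter on low counts, which kept 16213 genes. The tissue was the heart of wild-type (WT) C57BL/6J mice, an inbred laboratory strain, sequenced in bulk in 12 libraries. The groups were females and males, each either exercised or sedentary, with 3 libraries each, and ages were not analysed here. The exercise was 6 weeks of treadmill running at 1 km/h, with 5 sessions of 45 min each week, and sedentary mice of matched age were kept in their cages. Labels do not say in words that each library is a separate animal, so every p-value here reflects library-to-library spread, which may be technical.

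Interferons are secreted proteins that warn cells of viruses and other microbes. Type I interferons bind a receptor whose kinases, Jak1 and Tyk2, activate transcription factors such as Stat2, which joins Irf9 and binds interferon-stimulated response elements (ISRE) in the promoters of target genes. Interferon gamma acts through a different receptor and on gamma-activated sites (GAS). The target genes encode sensors of foreign RNA, enzymes and proteins that block viral replication, and factors that strengthen or end the response, and they are transcribed at a low level in uninfected tissue, the heart included.

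Promoters are shown first because the ISRE is the site that Stat2 and Irf9 bind in target genes. RefSeq promoters of GRCm38.p6, each 300 bases long with 250 before the transcript's start and 50 after it, were at hand for 32 of the 42 genes. An exact ISRE core, GAAANNGAAA on either strand, stood in 19 of the 32 (59.4%), against 3.99% of 27025 symbols in the table and 3.85% of the 11215 among them that were tested. The GAS core TTCNNNGAA, which reads the same on both strands, stood in 8 of the 32 (25%), against 9.55% of all symbols. Cores of the same kind were counted where they overlapped, and a core says only that these letters are present. In the windows below, read 5′ to 3′ on the gene's own strand, the ISRE cores are in capitals, also where the core is read from the other strand and starts with TTTC.
Isg15, chr4:156200860-156200911, minus strand: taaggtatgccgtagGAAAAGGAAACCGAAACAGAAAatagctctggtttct
Ifit1, chr19:34640770-34640828, plus strand: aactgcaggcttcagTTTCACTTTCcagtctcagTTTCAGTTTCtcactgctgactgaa
Ifit3, chr19:34583358-34583431, plus strand: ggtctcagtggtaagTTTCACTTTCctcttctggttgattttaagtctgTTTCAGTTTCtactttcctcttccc
Ifit3b, chr19:34607754-34607827, plus strand: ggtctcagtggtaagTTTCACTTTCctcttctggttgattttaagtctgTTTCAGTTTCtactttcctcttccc
Oas1a, chr5:120907526-120907560, minus strand: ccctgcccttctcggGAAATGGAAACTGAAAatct
Oas3, chr5:120777710-120777749, minus strand: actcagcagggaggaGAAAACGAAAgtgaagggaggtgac
Stat2, chr10:128270261-128270300, plus strand: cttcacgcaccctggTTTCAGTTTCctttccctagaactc
Gbp2, chr3:142620589-142620628, plus strand: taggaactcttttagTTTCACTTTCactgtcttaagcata
Igtp, chr11:58199507-58199546, plus strand: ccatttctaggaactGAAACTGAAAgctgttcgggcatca
Irgm2, chr11:58214898-58214937, plus strand: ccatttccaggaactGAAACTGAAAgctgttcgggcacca

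Isg15 carried 3 overlapping cores, which began 78 bases before its start. Ifit1, Ifit3, Ifit3b and Oas1a carried 2 each. The windows of Ifit3 and Ifit3b, a pair of close gene copies, were the same letter for letter. Of the genes that passed in the sex comparison below, Irf7, Irf9, Oasl2 and Ifit2 had no exact ISRE core in the 300 bases, and Ifitm3 had its cores after the start. The core was as frequent among the members that passed there (6 of 10) as among those that did not (13 of 22). Among the interferon-inducible GTPases, a family of enzymes that attack the vacuoles of intracellular microbes, 6 of 7 had it.

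Library totals ran from 22204349 to 32566240 counts. The 37 rows of mitochondrial transcripts were 0 in 11 libraries and made up 27.3% of the counts in female sedentary 2. They were removed by the filter. No library went against its sex label: Xist, the transcript behind X inactivation, was at 141 to 191 CPM in females and at most 1.53 CPM in males (CPM, counts scaled to the size of a library). The heart label held too, with cardiomyocyte markers at a summed 54200 to 63200 CPM. Transcripts of atrial muscle were uneven. Sln, an atrial regulator of the calcium pump, was above 5 CPM in female exercised 2 (43.6 CPM) and in female sedentary 1 and 2 (25.4 and 7.9 CPM), and in no male library.

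The members were weakly to moderately expressed in the heart. Per kilobase of exon, Ifitm3, a membrane protein that blocks virus entry, had the highest mean level, at 75 CPM per kb. Bst2 (tetherin, which holds budding virus at the cell surface) followed at 23.7 CPM per kb and Ifi27l2a, a small membrane protein, at 20.8 CPM per kb. The next member, Gbp2, was at 8.63 CPM per kb, and Mx1 and Oas3 were lowest, at 0.187 and 0.0701 CPM per kb. Oas3 rested on 2 to 24 counts per library and Mx1 on 8 to 33. The interferons themselves were almost absent: of 10 interferon genes looked up, 7 had no count in any library, Ifnb1 had 2 counts and Ifnl2 had 1 over all 12 libraries. Interferon gamma (Ifng) had 10 counts in all, from 5 libraries, and 7 of the 10 fell in the 3 sedentary female libraries. These had 2, 2 and 3 counts, while male sedentary 3 had 2 and male exercised 2 had 1. So few counts do not allow the groups to be compared.

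Sedentary females had higher levels of the interferon-stimulated genes than sedentary males. Among the 42 members, 11 rose in females and none fell, at an adjusted p under 0.05 (edgeR's quasi-likelihood test, adjusted by Benjamini-Hochberg over all genes tested). Of all genes tested, 0.851% were called higher. The 11 were the regulators Irf7, Irf9 and Stat2 and the effectors Ifit1, Ifit2, Oas1a, Oas3, Oasl2, Isg15, Ifitm3 and Ifi27l2a. Differences ran from 0.43 to 2.21 on the log2 scale, which is 1.35-fold to 4.62-fold. At an unadjusted p under 0.05, 26 members were higher and 0 lower, where 9.11% of all genes were higher. The point estimate was above 0 for 41 of 42 members, with Parp9 the exception at -0.02 ± 0.13 (SE), against 52.4% of all genes. The median log2 difference was 0.47 over the members and 0.01 over all genes. In 25 members every sedentary female library was above every sedentary male one, which held for 12.2% of all genes. The list was chosen with earlier results of these data known, so these counts describe it and do not test it. In bulk tissue, more cells of a type and more RNA per cell cannot be told apart.

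**Figure D1:**
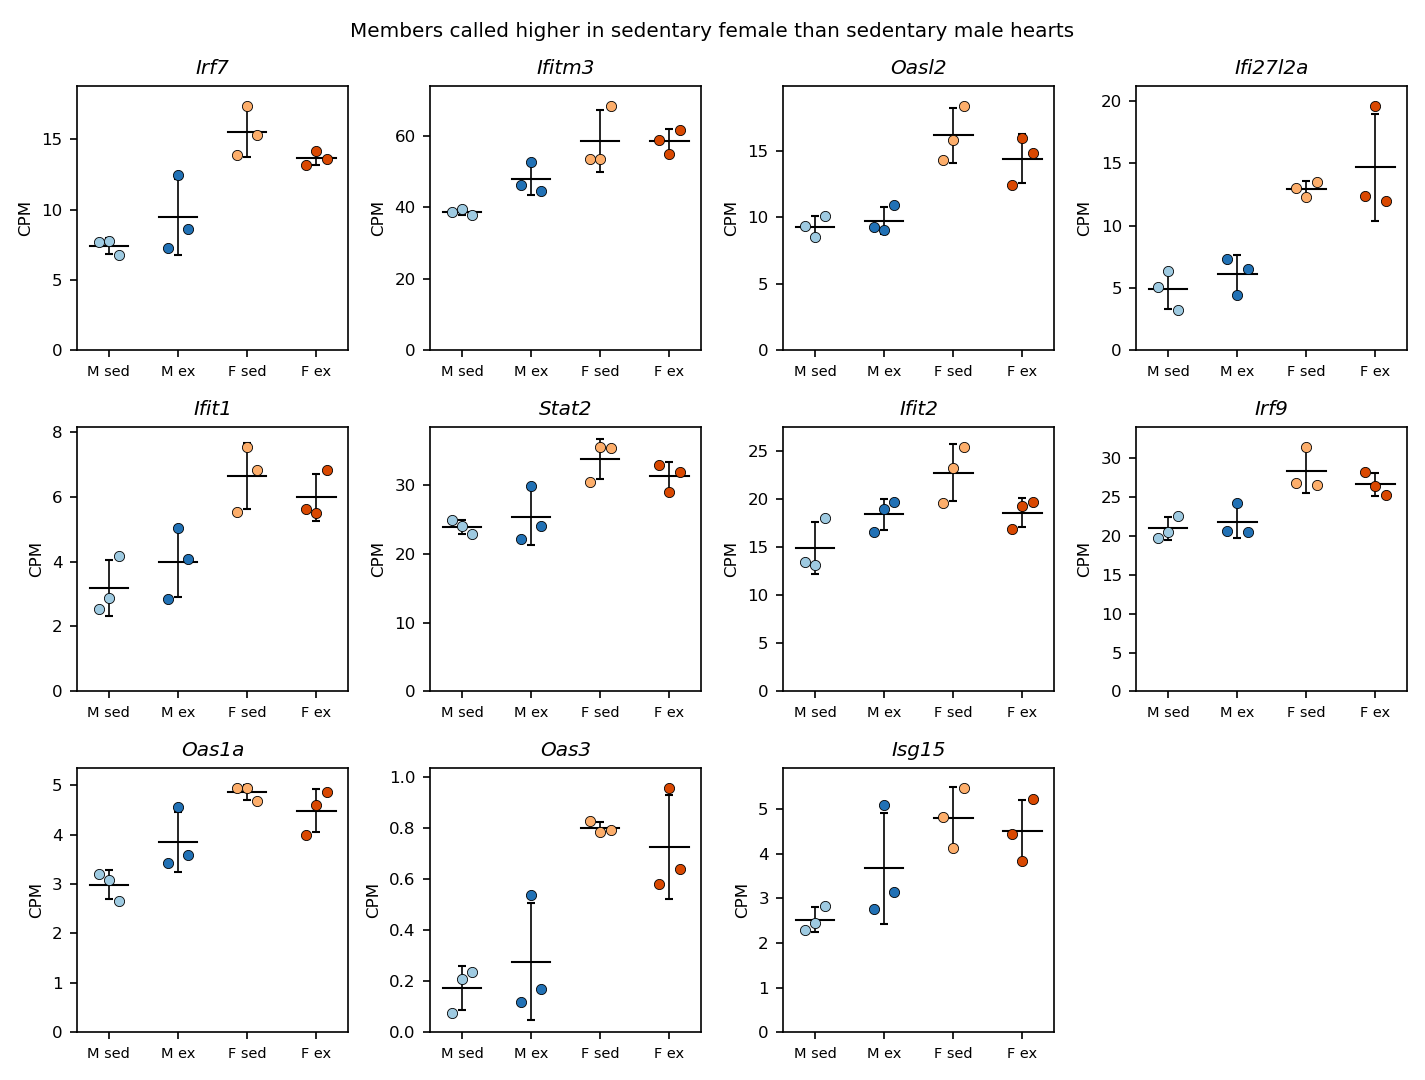
Levels in CPM of the 11 members called higher in sedentary female (F sed) than sedentary male (M sed) hearts, with the exercised groups (M ex, F ex) beside them. Points are libraries, horizontal lines group means and bars the SD (n = 3). The 3 sedentary female libraries lie above the 3 sedentary male libraries in each panel.

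Of the 4 regulators, 3 rose. Irf7, the factor that amplifies type I interferon production and lies on chromosome 7 at 141262706 to 141266481 (GRCm38), was at 13.9, 17.4 and 15.3 CPM in sedentary females and at 7.73, 7.78 and 6.80 CPM in sedentary males. The lowest female library stood well above the highest male library. The log2 difference was 1.06 ± 0.16 (SE, adjusted p = 0.00532 by edgeR). Stat2 was at 30.4, 35.6 and 35.4 CPM against 24.9, 24.1 and 22.9 CPM, a log2 difference of 0.50 ± 0.11 (adjusted p = 0.0296). Irf9, which brings Stat2 to DNA, was at 26.8, 31.5 and 26.6 CPM against 19.8, 20.5 and 22.6 CPM (0.43 ± 0.10, adjusted p = 0.0343). In neither gene did the groups overlap. Usp18, which strips ISG15 from proteins and damps the receptor, was at 4.52, 4.79 and 6.98 CPM against 3.28, 2.33 and 4.49 CPM. Its difference of 0.69 ± 0.26 did not pass (adjusted p = 0.175), although the groups did not overlap.

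The 4 sensors of foreign nucleic acid had a median log2 difference of 0.51, and none passed. Ifih1 (MDA5, a sensor of long double-stranded RNA) was at 12, 14.3 and 14.4 CPM in sedentary females and 10.3, 9.22 and 10.8 CPM in sedentary males. That difference of 0.42 ± 0.12 came close to the threshold (adjusted p = 0.0817). Zbp1, a sensor of nucleic acids in the left-handed Z form, was at 1.36, 1.69 and 1.94 CPM against 0.528, 0.592 and 1.28 CPM (1.07 ± 0.34, adjusted p = 0.116). Ddx58, the sensor known as RIG-I, differed by 0.16 ± 0.14, and its groups overlapped.

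All 4 members of the IFIT family, RNA-binding proteins that hinder translation of viral transcripts, had unadjusted p-values under 0.05, and 2 passed. Ifit1 was at 5.54, 7.54 and 6.81 CPM in sedentary females against 2.53, 2.88 and 4.16 CPM in sedentary males (1.06 ± 0.23, adjusted p = 0.0294). Ifit2 was at 19.6, 23.3 and 25.5 CPM against 13.5, 13.2 and 18.1 CPM (0.61 ± 0.13, adjusted p = 0.0309). In both genes male sedentary 3 was the highest of the sedentary males and stayed below all sedentary females. Ifit3 stood just outside the threshold at 0.98 ± 0.24 (adjusted p = 0.0598), and Ifit3b was at 0.74 ± 0.26 (adjusted p = 0.156). Between these neighbours reads are hard to assign: 51.2% of the 50-base windows of the longest Ifit3 transcript also occur in Ifit3b. The genes of this family lie side by side on chromosome 19, Ifit2 from 34550694 and Ifit1 up to 34650009.

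Of the 5 OAS genes, 3 rose. OAS enzymes make short oligoadenylates that switch on RNase L, which cuts RNA, and Oasl1 and Oasl2 are OAS-like relatives. Oasl2 was at 14.3, 15.8 and 18.4 CPM in sedentary females against 9.32, 8.5 and 10.1 CPM in sedentary males (0.79 ± 0.13, adjusted p = 0.00874). Oas1a was at 4.94, 4.95 and 4.68 CPM against 3.21, 3.09 and 2.65 CPM (0.70 ± 0.16, adjusted p = 0.0413), with the 3 libraries of each group close together. Of the windows of Oas1a, 57.6% also occur in its neighbour Oas1g, so its level is uncertain. Oas3 had the widest log2 difference of the members, 2.21 ± 0.54 (adjusted p = 0.0487), from 0.829, 0.786 and 0.795 CPM against 0.0755, 0.211 and 0.236 CPM. These are few reads, and the stricter filter on low counts removed the gene. Oas2 (0.53 ± 0.17) and Oasl1 (1.11 ± 0.38) did not pass, with adjusted p = 0.126 and 0.143, and in both the groups did not overlap.

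Isg15, a ubiquitin-like protein attached to other proteins, was at 4.82, 4.13 and 5.48 CPM in sedentary females and 2.30, 2.45 and 2.83 CPM in sedentary males. Its log2 difference was 0.93 ± 0.23 (adjusted p = 0.0489), just inside the threshold. The ligase that attaches it in mice, Herc6, had groups that overlapped and a difference of 0.06 ± 0.27.

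Among the 13 other antiviral effectors, 2 rose. Ifitm3 was at 53.5, 53.4 and 68.4 CPM in sedentary females against 38.7, 39.5 and 37.8 CPM in sedentary males (0.59 ± 0.10, adjusted p = 0.00874). Ifi27l2a was at 13.0, 12.3 and 13.5 CPM against 5.06, 6.39 and 3.26 CPM (1.39 ± 0.26, adjusted p = 0.0185). Every female library of Ifi27l2a was well above the highest male one. Next came Cmpk2, a mitochondrial nucleotide kinase, at 0.50 ± 0.13 (adjusted p = 0.0661), and Bst2, at 0.51 ± 0.15 (adjusted p = 0.0881). Rsad2, or viperin, which makes a chain-terminating nucleotide and lies beside Cmpk2 on chromosome 12, was at 0.27 ± 0.18, and its groups overlapped. Mx1, a gene of the dynamin-like GTPase family, was at 0.69 ± 0.50 on few reads.

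The GTPases and the PARP family had the smallest median differences among the role groups. None of the 7 GTPases passed in sedentary hearts and their median log2 difference was 0.13, although all 7 point estimates were above 0. Leaving out single libraries moved this value. Igtp was at 15.1, 25 and 15.6 CPM in sedentary females and at 12.7, 11.4 and 27.2 CPM in sedentary males, and Irgm1, a regulator of the other members of its family, at 23.7, 28.7 and 22.8 CPM against 17.1, 15.8 and 29.6 CPM. Gbp2 was at 22.4, 25.6 and 21.7 CPM against 17.2, 17 and 30.8 CPM. In all 3 genes the highest of the 6 values was that of male sedentary 3, and the other sedentary males were below every sedentary female. With that library left out, the GTPases' median was 0.44, their range 0.41 to 0.71, and the smallest adjusted p 0.0781. Without male sedentary 2 the median was -0.04, and without male sedentary 1 it was 0.03. The 3 PARP members, which are ADP-ribosyltransferases or their relatives, had a median of 0.17, and none passed.

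**Figure D2:**
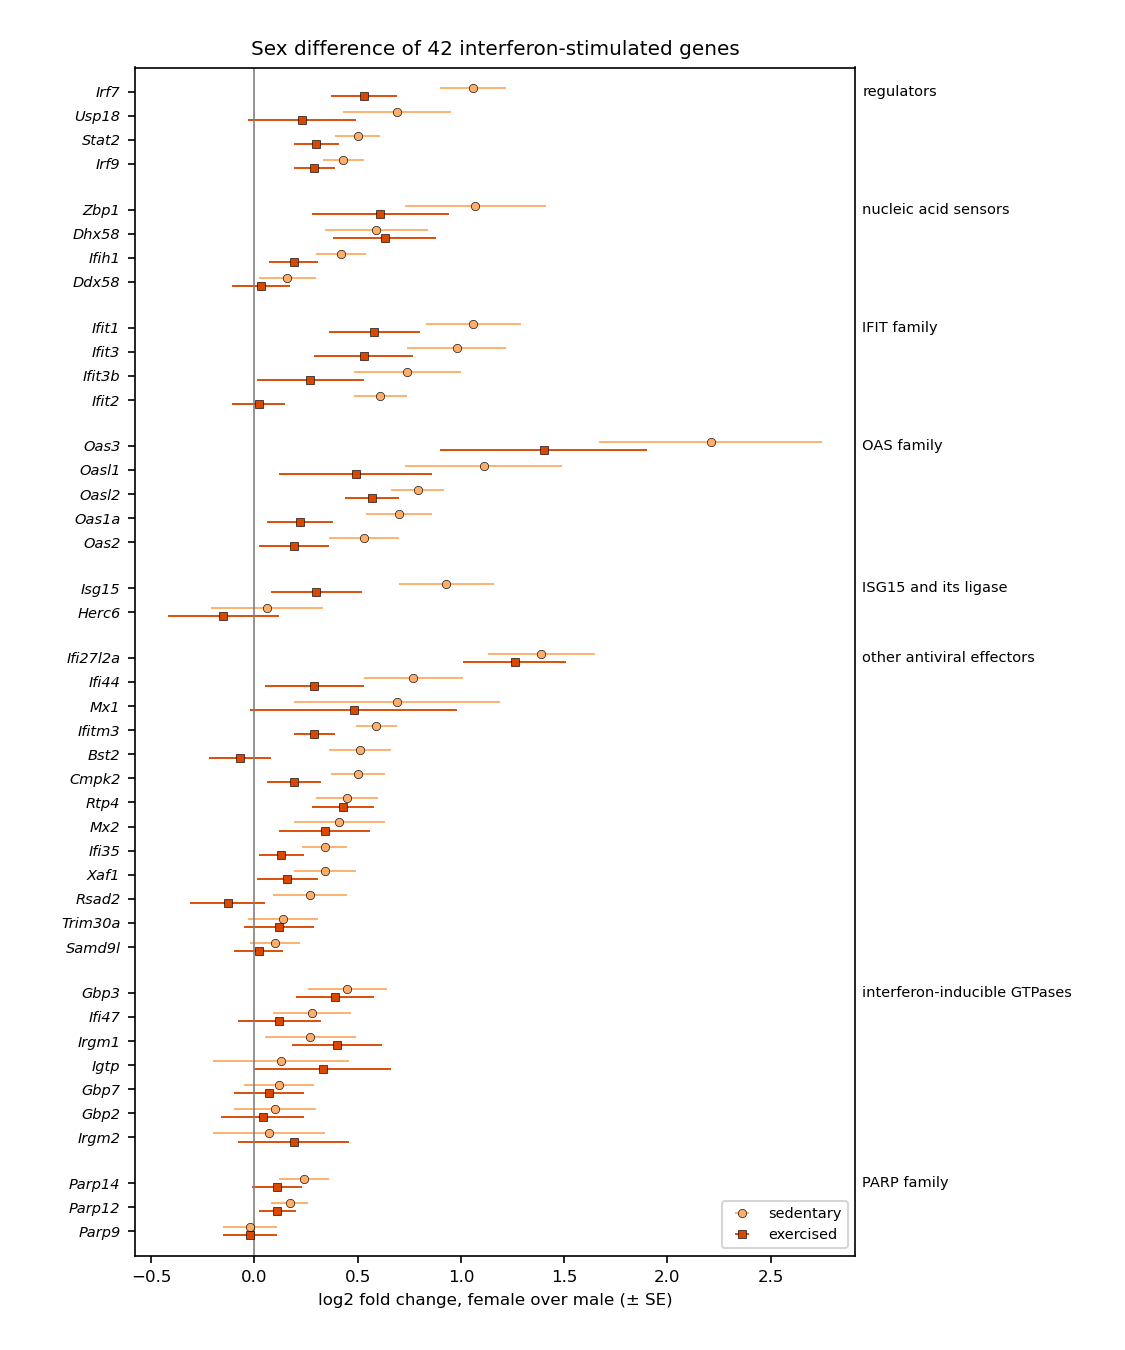
Log2 fold change of females over males for each of the 42 members, in sedentary (circles) and exercised (squares) hearts, grouped by role, with bars of 1 SE. In sedentary hearts 41 of 42 estimates lie above 0 and in exercised hearts 38 of 42, and 38 of 42 are smaller in exercised hearts.

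How far the sex difference rested on single libraries was checked by leaving each out in turn. Irf7, Ifitm3 and Oasl2 passed in every one of the 12 fits. Their log2 differences stayed between 0.97 and 1.14, 0.47 and 0.66, and 0.69 and 0.88. The number of members that passed was 3 without female sedentary 2, female sedentary 3 or male sedentary 1, 4 without male sedentary 2, 5 without male sedentary 3 and 6 without female sedentary 1. It was 8 with any single exercised female left out, and 14, 13 and 9 without male exercised 1, 2 and 3. The median over the members stayed between 0.43 and 0.56. DESeq2 called 14 members, of which 10 were among the 11, and limma's voom with sample weights called 13, which included all 11.

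Atrial transcripts were higher in some female libraries. The summed level of 5 atrial markers was 387, 253 and 251 CPM in sedentary females and 59.9, 136 and 54.1 CPM in sedentary males. These sums did not overlap. In exercised females the sum was 61.2, 350 and 86.2 CPM. The marker Nppa made up most of the sums in sedentary hearts. Its levels were 222, 196 and 249 CPM in females against 58.2, 133 and 52.1 CPM in males. Sln, Myl4 and Myl7 overlapped between the sedentary sexes and were at 0, 1.06 and 0.972 CPM in female sedentary 3. With only the 9 libraries with Sln at or under 5 CPM, female sedentary 3 was the single sedentary female, which was taken to vary like the other groups. Ifitm3 alone then passed, at 0.82 ± 0.11 (adjusted p = 0.0144). Irf7 was at 1.04 and Oasl2 at 0.98, and the members' median was 0.56 with 38 of 42 above 0. Centred on each gene's mean, the 42 members averaged 0.37 on the log2 scale in female sedentary 3. In female sedentary 1 and 2 they averaged 0.14 and 0.31. The median thus rests on the sedentary female that was highest for the list. Red cell transcripts also differed, with 5 markers at a summed 34.6 to 3630 CPM in sedentary females and 8.26 to 43.6 CPM in sedentary males. Female sedentary 3, at 34.6 CPM for these, was within the range of the males. Macrophage markers, 12 genes, overlapped at a summed 250 to 331 CPM against 195 to 293 CPM, yet all 12 had estimates above 0, with a median log2 difference of 0.26 and none that passed. In exercised hearts 11 of the 12 were above 0, also with a median of 0.26. Sums overlapped too for endothelial markers, 7 genes, at 933 to 1110 CPM in sedentary females against 960 to 982 CPM in sedentary males. The markers of T and NK cells, at 1.90 to 4.13 CPM against 2.11 to 2.17 CPM, were scarce, with 2 of 10 tested. Cardiomyocyte markers, 6 genes, were at 54200 to 56100 CPM in sedentary females and 57000 to 63200 CPM in sedentary males, and fat markers, 4 genes, at 0.707 to 11.9 CPM against 0.453 to 0.55 CPM, both without overlap. Markers of fibroblasts, of monocytes and dendritic cells, of B cells and of neutrophils overlapped. None of the 11 marker lists had a marker at 0 in every library. The part of these cells in the sex difference was not tested.

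In exercised hearts no member passed between the sexes in edgeR's test, where 15 genes (0.0925%) were called higher. The smallest adjusted p among the members was 0.108. At an unadjusted p under 0.05, 11 members were higher in females and none lower, where 4.84% of all genes were higher. By DESeq2, Ifi27l2a and Oasl2 passed, and by voom none did. Estimates were above 0 for 38 of 42 (50.8% of all genes), with a median of 0.25, and 10 members had groups that did not overlap, higher in females (6.79% of all genes). Ifi27l2a was at 12.4, 19.6 and 12 CPM in exercised females and 7.35, 4.41 and 6.52 CPM in exercised males, a log2 difference of 1.26 ± 0.25 that was nearly as large as in sedentary hearts. Oasl2 was at 12.4, 16.0 and 14.8 CPM against 9.24, 9.05 and 10.9 CPM (0.57 ± 0.13). Irf7 was at 13.2, 14.2 and 13.6 CPM against 7.31, 12.5 and 8.65 CPM (0.53 ± 0.16). Male exercised 2 was the highest male library for Irf7 and without it the difference was 0.78 ± 0.13 (adjusted p = 0.0375 by edgeR), past the threshold. Leaving out the highest male value widens the difference by construction. With any other single library left out, Irf7 did not pass. Ifit2 and Bst2, which differed in sedentary hearts by 0.61 and 0.51, were at 0.02 ± 0.13 and -0.07 ± 0.15.

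Over both conditions, 9 members were higher in every one of the 6 female libraries than in any of the 6 male libraries, and none was lower in every one. This separation, higher in females, was seen in 1.43% of all genes. The 9 were Irf7, Irf9, Zbp1, Ifit1, Oas3, Oasl2, Ifitm3, Rtp4 and Ifi27l2a. Rtp4, an interferon-induced chaperone of receptors, lay between 7.35 and 9.99 CPM in females and 5.43 and 7.13 CPM in males.

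Exercise did not give a call for any member in either sex. In females, 0 of 42 passed in edgeR's test, as did 0% of all genes, and 0 by DESeq2 or voom. Point estimates were below 0 for 38 members, and above 0 for 4 where 50.1% of all genes were above 0. The median was -0.12, and estimates ran from -0.33 to 0.18. At an unadjusted p under 0.05 there were 2 lower members, Samd9l and Ifit2, and 2.04% of all genes were lower. Samd9l, a restrictor of poxviruses and of translation, was at 17.6, 19.0 and 18.3 CPM in exercised and 19.9, 23.9 and 22.3 CPM in sedentary females (-0.27 ± 0.12, 95% interval -0.52 to -0.02). Ifit2 was at 16.9, 19.3 and 19.7 CPM against 19.6, 23.3 and 25.5 CPM (-0.29 ± 0.13), and the groups overlapped slightly. Xaf1, a promoter of cell death, was at 7.95, 8.28 and 7.31 CPM in exercised and 8.66, 9.08 and 11.3 CPM in sedentary females (-0.30 ± 0.14), without overlap. In 7 members, among them Xaf1, Oas2, Bst2 and Rsad2, every exercised female was below every sedentary one, which held for 4.37% of all genes. Without 1 library the number above 0 ranged from 3 to 11 and the median from -0.20 to -0.05.

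In males, 0 of 42 members passed in edgeR's test and likewise 0% of all genes, with 0 by DESeq2 and voom. There 28 members were above 0 (50.1% of all genes) and the median was 0.07. At an unadjusted p under 0.05, 4 members were higher, where 4.24% of all genes were. They were Ifitm3, Isg15, Ifit2 and Oas1a. Ifitm3 was at 46.1, 52.7 and 44.5 CPM in exercised and 38.7, 39.5 and 37.8 CPM in sedentary males, 0.30 ± 0.10 with a 95% interval of 0.10 to 0.51 (unadjusted p = 0.00731, adjusted p = 0.615). Isg15 was at 2.77, 5.09 and 3.15 CPM against 2.30, 2.45 and 2.83 CPM (0.54 ± 0.23), and male exercised 2 stood apart from the other 5 males. Ifit2 was at 16.6, 19 and 19.7 CPM against 13.5, 13.2 and 18.1 CPM (0.31 ± 0.13), and the groups overlapped. Oas1a and Ifitm3 were the 2 members whose groups did not overlap, higher in exercised males, which held for 6.17% of all genes. By family, all 4 IFIT genes and all 5 OAS genes were above 0, with medians of 0.36 in each, while 6 of 7 GTPases were below 0. The median over the members ran from 0.01 to 0.20 with 1 library left out. Macrophage markers were above 0 with exercise in 11 of 12 cases in males (median 0.25) and in 12 of 12 in females (median 0.23), and their part in the members' levels was not tested.

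The difference between the exercise effects of females and males was tested as an interaction. No member passed (0% of all genes, 0 members by DESeq2 or voom), and the smallest adjusted p was 0.93. This contrast is also the difference between the sex effects in exercised and sedentary hearts, so the smaller sex difference after exercise was not shown by the test. At an unadjusted p under 0.05, 4 members were lower, Ifit2 (-0.59 ± 0.19), Bst2 (-0.58 ± 0.21), Irf7 (-0.53 ± 0.23) and Ifitm3 (-0.30 ± 0.14), where 2.40% of all genes were. Bst2 was at 20.8, 20.4 and 21.3 CPM in exercised and 22, 25 and 28.3 CPM in sedentary females, and at 16.1, 27 and 22.7 CPM in exercised and 17.9, 17.6 and 17.3 CPM in sedentary males. Exercised females were below and, but for male exercised 1, exercised males above their sedentary groups. The estimate was above 0 for 4 members (49.4% of all genes) and the median was -0.21. In 24 members the estimate for exercise was below 0 in females and above 0 in males. That count was not tested, and the share over all genes was not computed, so it has no baseline. Averaged over the sexes, 0 members passed in edgeR's test (0% of all genes, and 0 members by DESeq2 or voom). At an unadjusted p under 0.05, Ifitm3 was higher (0.15 ± 0.07) and Samd9l lower (-0.23 ± 0.08). Of all genes, 3.5% were higher and 2.78% lower at that threshold. Estimates were above 0 for 19 members, against 50.5% of all genes. The median was -0.02. Samd9l in males was at 15.6, 18.5 and 20 CPM in exercised and 17.7, 20.5 and 23.5 CPM in sedentary hearts, and the groups overlapped.

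**Figure D3:**
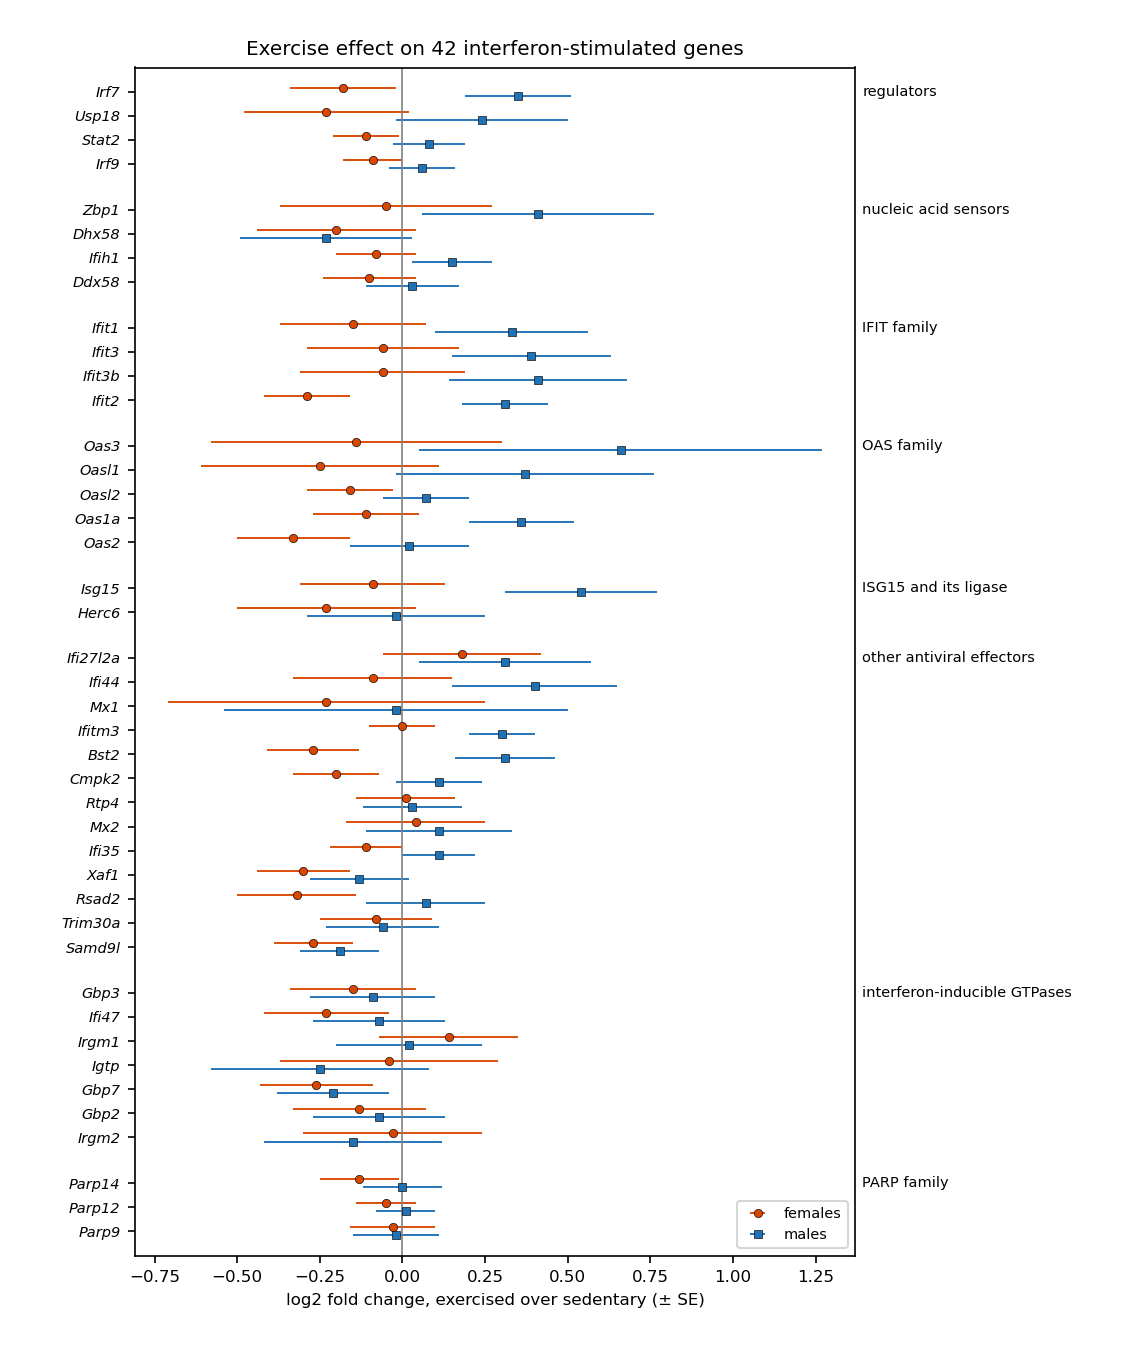
Log2 fold change of exercised over sedentary hearts for each of the 42 members in females (circles) and males (squares), grouped by role, with bars of 1 SE. In females 38 of 42 estimates lie below 0 and in males 28 of 42 above 0, and no member passed in either sex.

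The members rose and fell together between libraries of a group. With each group's mean removed, the median of Pearson's r over the 861 pairs of members was 0.41 across the 12 libraries, and 85% of pairs were positive. Over pairs of all genes the median was 0, with lower and upper quartiles of -0.27 and 0.27. Among the GTPases the median r was 0.81 over 21 pairs, with Gbp2 and Irgm1 at 0.98 and Igtp and Irgm2 at 0.94. Part of the exons of Igtp lie within the annotated Irgm2 locus and 12.3% of its 50-base windows occur in Irgm2, so the reads of that pair are not fully separate. Without male sedentary 3 the median among the GTPases was 0.66. Pairs of a GTPase and another member had a median of 0.38, or 0.29 without that library. Libraries share depth and tissue make-up across genes, so these values describe the libraries and carry no test.

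One member ran against the rest. Ifi27l2a correlated negatively with 35 of the 41 others, with a median r of -0.36 and a lowest value of -0.82, with Irgm1. No other member had a median r below 0. Oas1a and Ifitm3 came next, at 0.10 and 0.12. In sedentary males Ifi27l2a was lowest in male sedentary 3 (3.26 CPM), the library in which 31 of 42 members were highest of the 3. In exercised males it was lowest in male exercised 2 (4.41 CPM), where 24 of 42 members were highest. In females it did not stand against the list in this way: it was highest in female sedentary 3 (13.5 CPM), where 20 of 42 members were highest, and in female exercised 2 (19.6 CPM), where 18 were.

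**Figure D4:**
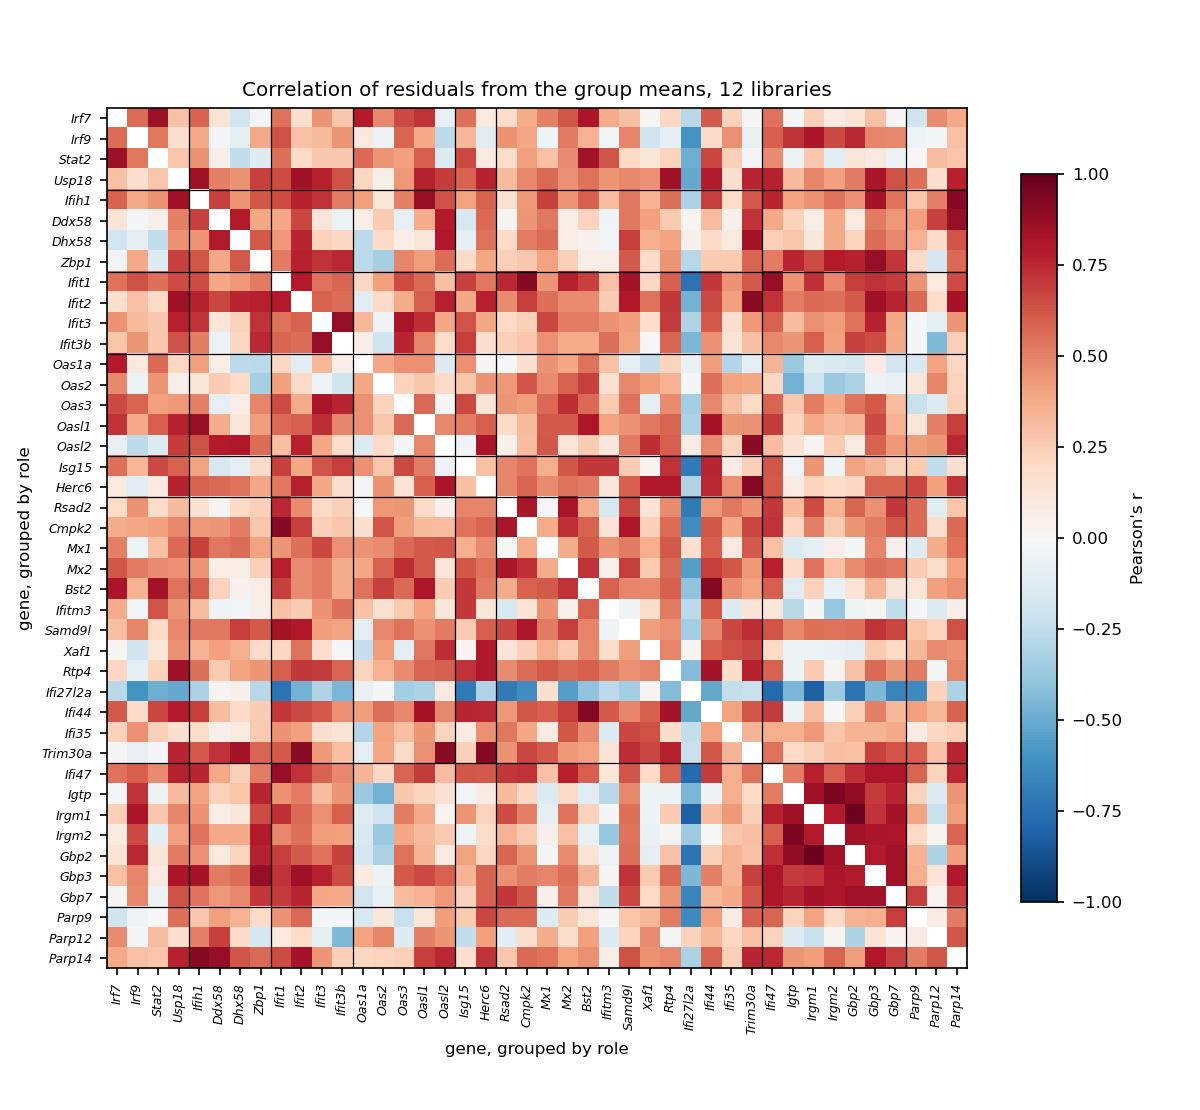
Pearson's r between members across 12 libraries after each group's mean was removed from log2 CPM, with genes ordered by role and black lines between roles. The GTPase block has a median r of 0.81, and Ifi27l2a is negative with 35 of 41 other members.

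Libraries of 1 group differed in the level of the whole list. In male sedentary 3 all 7 GTPases were the highest of the 3 sedentary males. Their median was 0.84 above the other libraries of the group on the log2 scale. Of the 35 other members, 24 were highest there and 8 lowest, with a median of 0.23. Female sedentary 2 was likewise highest in all 7 GTPases, by a median of 0.22. Male exercised 1 was the lowest of its group in 30 of 42 members and female exercised 1 in 26. Centred on each gene's mean, the 35 members other than GTPases averaged -0.39, -0.37 and -0.15 in sedentary males, -0.41, 0.03 and -0.09 in exercised males, 0.15, 0.30 and 0.44 in sedentary females and 0.01, 0.25 and 0.21 in exercised females. The GTPases averaged -0.28, -0.41 and 0.45 in sedentary males and 0.05, 0.39 and 0.05 in sedentary females. For the 35 genes the sedentary sexes did not overlap, and for the GTPases they did.

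**Figure D5:**
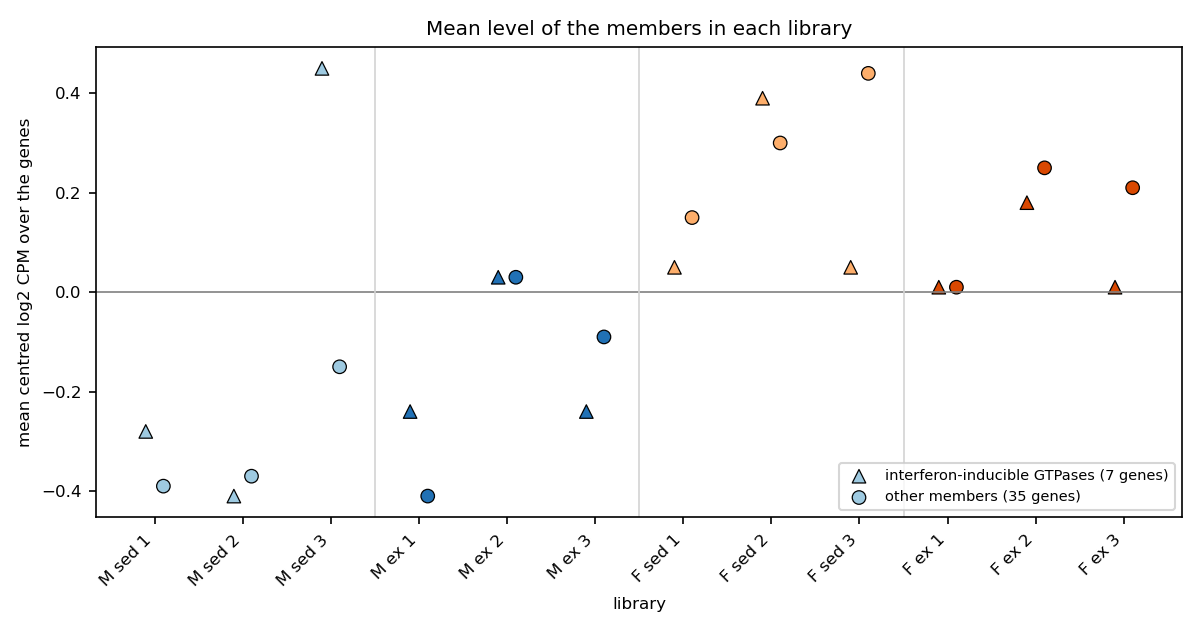
Mean log2 CPM, centred for each gene on its mean over the 12 libraries, of the 7 GTPases (triangles) and the 35 other members (circles) in each library. For the other members the sedentary males lie between -0.39 and -0.15 and the sedentary females between 0.15 and 0.44, while the GTPases of male sedentary 3 stand at 0.45.

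Other genes of the pathway were taken from lists of their own. Among 53 further interferon-stimulated genes tested, 40 were above 0 in sedentary females over males (52.4% of all genes), with a median of 0.24. Of the 53, 8 rose and none fell, where 0.851% and 1.36% of all genes did. They included Lgals3bp, a secreted glycoprotein (0.56 ± 0.09, adjusted p = 0.00532 by edgeR), Isg20, an exonuclease (0.86 ± 0.18, adjusted p = 0.0272), Psmb8, a subunit of the immunoproteasome (0.56 ± 0.13, adjusted p = 0.0343), and Uba7, the enzyme that activates ISG15 (0.44 ± 0.09, adjusted p = 0.0285). Among 20 tested ligands, receptors and signalling genes none passed and none had an unadjusted p under 0.05. Estimates were above 0 for 12 of the 20, against 52.4% of all genes, with a median of 0.05. The type I receptor chains Ifnar1 and Ifnar2 were at 0.01 ± 0.08 and 0.11 ± 0.10, and the kinases Jak1 and Tyk2 at -0.04 ± 0.08 and 0.08 ± 0.09. Among 15 genes of upstream sensing none passed either, and the median was 0.01. At an unadjusted p under 0.05, 1 was higher and 1 lower, where 9.11% of all genes were higher and 9.28% lower. In exercised hearts none of the 53, the 20 or the 15 passed between the sexes, in edgeR's test. At an unadjusted p under 0.05, 8 of the 53 were higher in females and none lower, 1 of the 20 was higher and 4 lower, and none of the 15 was either, where 4.84% of all genes were higher and 5% lower.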

How the data were processed

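Bulk heart RNA of 12 libraries was analysed as 4 groups of 3. Per the submitters' processing notes, the authors trimmed reads with Trimmomatic 0.36, aligned them with STAR 2.5.2b to GRCm38 and deposited raw counts per gene made with featureCounts (Subread 1.5.2). The sources used here name no annotation release, strand setting or kit, so members that overlap an antisense gene, such as Ifi35, are uncertain. Of 55401 rows, 55141 matched a symbol, and positions are those of GENCODE for GRCm38.

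Counts were tested with edgeR 4.0.16 in R 4.3.3: filterByExpr, TMM scaling, 1 group-means model over all libraries with 8 residual degrees of freedom, the robust quasi-likelihood test, and Benjamini-Hochberg adjusted p under 0.05 over 16213 genes. The code was checked on simulated counts. Levels are CPM, and log2 CPM for correlations used a prior count of 2. Precision is limited by 3 libraries a group: the median SE of a member's log2 difference between the sedentary sexes was 0.17. Alternatives were RLE scaling, no filter, DESeq2 1.42.0, a minimum of CPM above 1 in 3 libraries, limma 3.58.1 voom with sample weights, only the groups compared, libraries with little Sln, and each library left out. The members, lists and settings were chosen with earlier results of these data known. By the rule for naming, any member could be named, with values in every library for the 3 of smallest p in a contrast and for role examples.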

Additional observations from a re-analysis of the deposited data

Results flagged for a closer look

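Mitochondrial transcripts, which the tests did not use, were present in female sedentary 2 alone. The 37 rows held 8900132 counts there, 27.3% of that library, and 0 counts in each of the other 11. Without these rows its total was 23666108, and the scaled levels of the members rest on the remaining genes.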

How the results depend on the processing

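No paired analysis was made because the labels give no pairing between libraries of different groups. The replicate numbers used here only order the libraries within a group. No value changed direction with a call. For females against males in sedentary hearts, RLE scaling, the stricter filter, voom and the fit of only the groups compared stayed near the 11 members and 358 genes called, and 7 of the 11 members passed in all of these, in DESeq2 and without a filter. DESeq2 called 866 genes, the fit without a filter 1317 genes and 20 members, and the 9 libraries with little Sln 14 genes and 1 member. With each library left out, 68 to 462 genes and 3 to 14 members passed. Fewer members passed without a sedentary library, which also left fewer samples in a compared group, and the cause was not tested. For exercised hearts 26 genes passed, 15 with only the groups compared, 167 genes and 2 members with DESeq2, 531 genes and 5 members without a filter, and 17 to 55 genes and 0 to 1 members with a library left out. Genes called for exercise were 0, and by DESeq2 1 in females, 25 in males, 10 for the difference and 14 for the average. Without a filter they were 357, 327, 173 and 399, with 0 to 1 when a library was left out. No member passed for exercise in any setting. Members above 0 ranged over left-out libraries from 3 to 11 in females, 1 to 11 for the difference and 9 to 28 for the average, with 7 and 12 for the last 2 in the libraries with little Sln. Other moves, whose cause was not tested, concerned single members. With 1 mismatch allowed, 29 of 32 promoters held an ISRE core and 28 a GAS core, against 38.9% and 74.2% of all symbols. At 3 libraries a group, differences of about the median SE are not detectable. Larger ones can fail too: Ifih1, Cmpk2 and Ifit3 differed between the sedentary sexes by several times their SE and did not pass.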
